A study of Saccharomyces cerevisiae with 3 samples.

Results

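Among the genes that budding yeast uses to reduce and take up iron, the 10 described here are FRE1, FRE2, FRE3, FRE4, FIT1, FIT2, FIT3, FTR1, FET3 and ARN1, out of 4069 genes measured under a name. The set covers 4 ferric reductases, 3 cell wall proteins and 3 components of uptake across the membrane. It was chosen from the function of the genes with their ratios upon osmostress already known, FRE1 being among the lowest of all genes. All values of NaCl over untreated cells are therefore given for these 10 genes as a description, with no p-value, and how many of them the fit over all genes called is counted without reading anything from it. RNA came from 3 biological replicates of wild-type BY4741, a haploid MATa laboratory strain in which HIS3, LEU2, MET17 (MET15) and URA3 are deleted in whole or in part, grown to mid-log phase in YPD, a rich medium. Cells stressed for 15 minutes with 0.4 M NaCl (Cy3) and untreated cells of the same strain (Cy5) were hybridized together to 1 array per replicate, so that each value is a log2 ratio of NaCl over untreated cells, and replicates 1, 2 and 3 are the 3 arrays. The dyes were not exchanged on any array, so an effect of the dye on a gene and an effect of NaCl cannot be told apart.

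Iron is scarce in soluble form, and yeast takes it up by 2 routes. In the reductive route, ferric reductases of the plasma membrane (the FRE family) turn ferric into ferrous iron, which the multicopper oxidase Fet3 and the permease Ftr1 carry into the cell as 1 complex. In the other route, iron bound to siderophores, the iron chelators that microbes secrete, is held at the cell wall by the mannoproteins Fit1, Fit2 and Fit3 and taken up by carriers such as Arn1. The transcription factors Aft1 and Aft2 activate most of these genes when iron is low, while FRE1 and a few other genes also answer to copper through the factor Mac1.

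The 10 genes did not move as 1 group. Upon osmostress FRE4 and FIT1 stood 7.20-fold and 6.01-fold above untreated cells, FRE1 and FTR1 stood 5.61-fold and 2.64-fold below, and the other 6 genes had mean log2 ratios between -0.68 and 0.18. The median of the 10 mean log2 ratios was -0.29, against -0.01 over all 4069 genes. In the order of all genes, FRE1 was the fourth lowest and FTR1 number 57 from the bottom, and FRE4 and FIT1 were numbers 45 and 56 from the top. A change of 2-fold or more upwards was found for 2 of the 10 genes (FRE4 and FIT1), against 6.61% of all genes, and downwards for 2 (FRE1 and FTR1), against 3.69% of all genes. The limma fit, at a threshold of 0.05 for the adjusted p, called 2 of the 10 genes higher, where it called 26.9% of all genes so, and 5 lower (FRE1, FRE3, FIT2, FTR1 and ARN1), where it called 27.9% of all genes so. Without replicate 2 FRE3 was not called, and without replicate 3 FIT3 was called higher. As the set was put together with this contrast in view, these counts are no evidence about the set.

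**Figure D1:**
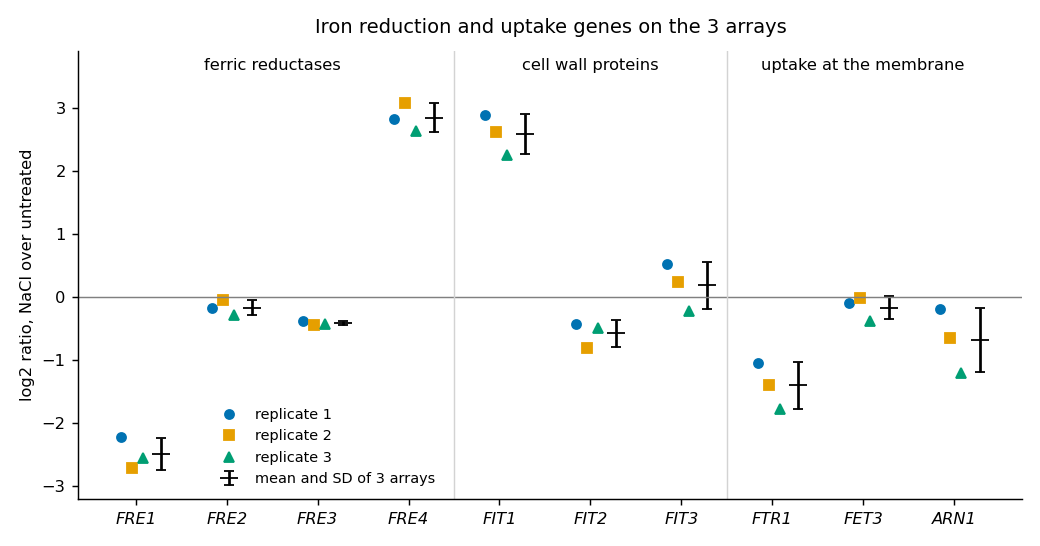
Log2 ratio of NaCl over untreated cells (y axis) of the 10 genes (x axis) on the arrays of replicates 1, 2 and 3, with the mean and SD of the 3 arrays in black. FRE4 and FIT1 lie above 2.2 on every array and FRE1 lies below -2.2 on every array, while FRE2, FRE3, FIT2, FIT3, FET3 and ARN1 lie between -1.20 and 0.53.

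Of the reductases, FRE1 (YLR214W) encodes the main surface reductase of ferric and cupric ions. Its log2 ratio was -2.22, -2.70 and -2.55 on the arrays of replicates 1, 2 and 3, a mean of -2.49 ± 0.25 (SD, n = 3). All 21 spots of FRE1 were low, with the single spots running between -2.78 and -2.11 over the 3 arrays. FRE4 (YNR060W), which encodes a reductase for iron bound to siderophores, stood at the opposite end, with 2.82, 3.08 and 2.64 on the 3 arrays and a mean of 2.85 ± 0.22 (SD, n = 3). The distance between FRE4 and FRE1 was 5.34 ± 0.40 on the log2 scale (SD, n = 3), and it was 5.04 on the array where it was smallest. FRE2 (YKL220C), which encodes another reductase of free and siderophore-bound iron, was near 0, with -0.16, -0.05 and -0.29. FRE3 (YOR381W), a close relative of FRE2 by sequence that serves siderophore-bound iron, had -0.38, -0.43 and -0.43, the closest agreement between arrays of the 10 genes (SD 0.03, n = 3). One spot of FRE3 stood apart on the array of replicate 1, at 0.18 where the lowest was -0.52. The same spot was also the highest on the arrays of replicates 2 and 3, at -0.15 and -0.18. With the median of spots in place of the mean the ratio of FRE3 was -0.48. Spots of related genes may measure both of them, and the probe sequences were not analysed here, so the part of this in the values of FRE2 and FRE3 was not tested.

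Among the cell wall proteins, which are anchored mannoproteins that keep siderophores near the cell surface, FIT1 differed from FIT2 and FIT3. FIT1 (YDR534C) had log2 ratios of 2.89, 2.62 and 2.26, a mean of 2.59 ± 0.32 (SD, n = 3). FIT2 (YOR382W) was below 0 on every array, with -0.42, -0.81 and -0.50 (mean -0.58 ± 0.21, SD, n = 3). FIT3 (YOR383C) changed sign between arrays, with 0.53, 0.24 and -0.21 (mean 0.18 ± 0.37, SD, n = 3). The sign of FIT3 did not depend on single spots, as its 7 spots lay between 0.43 and 0.65 on the array of replicate 1 and between -0.34 and -0.07 on that of replicate 3. FIT1 exceeded FIT2 by 3.16 ± 0.36 on the log2 scale (SD, n = 3), and FIT3 exceeded FIT2 by 0.76 ± 0.42 (SD, n = 3). Each of these differences had the same sign on all 3 arrays.

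Uptake at the membrane was split between the partners of the reductive route. The permease gene FTR1 (YER145C) stood at -1.04, -1.39 and -1.77, a mean of -1.40 ± 0.37 (SD, n = 3). The oxidase gene FET3 (YMR058W) had ratios of -0.10, -0.02 and -0.38, a mean of -0.17 ± 0.19 (SD, n = 3). FTR1 was lower than FET3 on each array, and the difference of FTR1 minus FET3 averaged -1.23 ± 0.25 on the log2 scale (SD, n = 3). ARN1 (YHL040C), whose product takes up ferrichrome and related siderophores, had the widest spread of the 10 genes, with -0.19, -0.65 and -1.20 (mean -0.68 ± 0.50, SD, n = 3). Its SD between arrays was larger than that of 98.8% of all genes. The 7 spots of ARN1 agreed on each array, with an SD of at most 0.09, and the spots of the 3 arrays did not overlap.

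**Figure D2:**
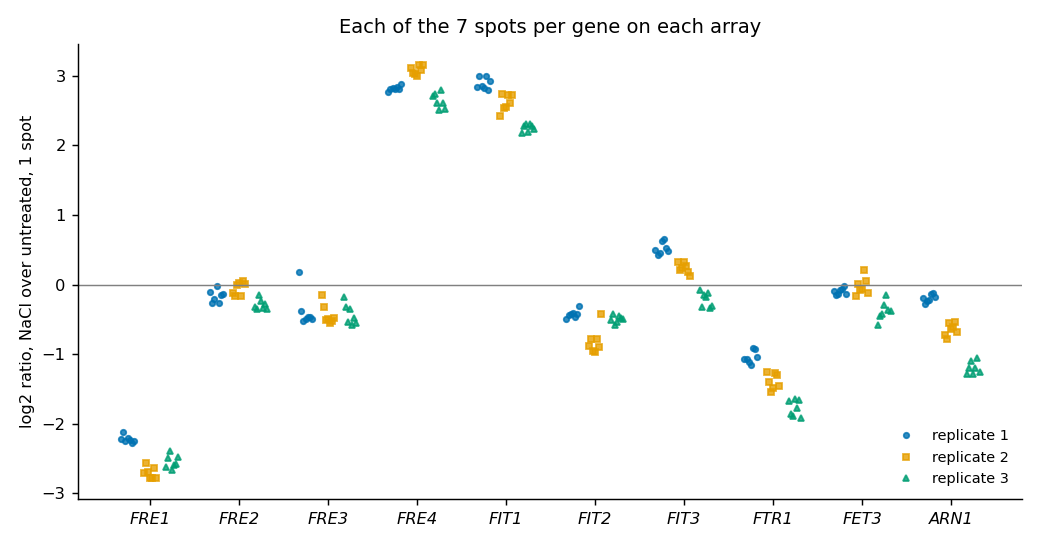
Log2 ratio of NaCl over untreated cells of each single spot (y axis), 7 spots per gene (x axis) on each of the 3 arrays. Spots of ARN1, FTR1, FIT1 and FIT3 form a separate band for each array. On the array of replicate 1, 1 spot of FRE3 lies at 0.18, above its other spots.

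The spread between arrays ran the same way in many of these genes. The ratio was lower on the array of replicate 3 than on that of replicate 1 for all 10 genes, with a median difference of -0.31 on the log2 scale. ARN1 differed the most of them and FRE3 the least, by -0.05. Over all genes, 51.1% were lower on the array of replicate 3 and the median difference was -0.01. The array of replicate 3 was the lowest of the 3 for 7 of the 10 genes, against 37.3% of all genes, and that of replicate 1 was the lowest for none of them, against 41.6% of all genes. Of 17 other genes of the Aft1/Aft2 regulon, 15 were lower on the array of replicate 3 than on that of replicate 1, with a median difference of -0.22. Other lists had like differences, with 13 of 15 other cell wall mannoproteins lower (median -0.32) and 9 of 13 other metal transporters (median -0.28). The same held for 9 of 22 genes of iron-sulfur cluster assembly, for 3 of 8 of heme synthesis and for 2 of 6 regulators of iron, whose median differences were above 0. The medians over all genes were -0.001, -0.01 and -0.02 on the 3 arrays. Genes on 1 array share its RNA and its hybridization, and no test was made of this difference.

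**Figure D3:**
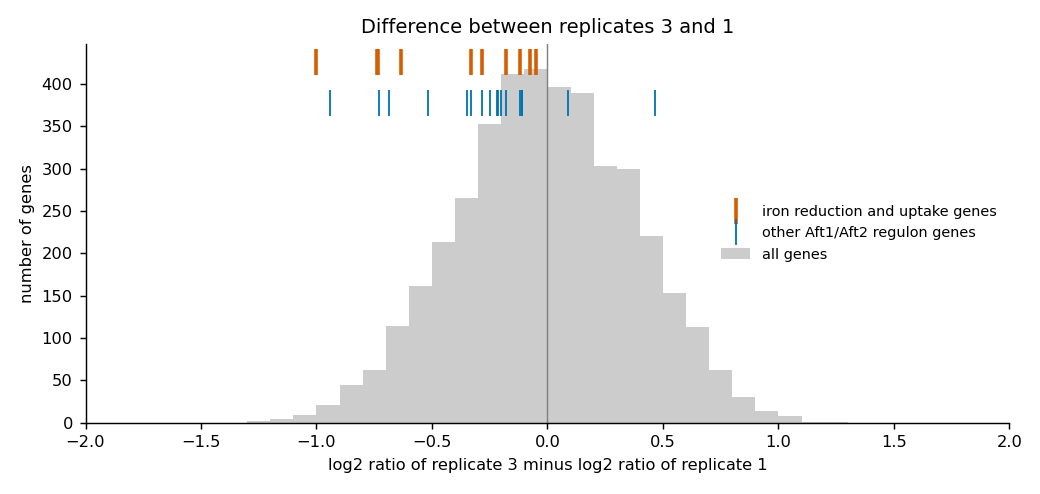
Histogram of the log2 ratio of replicate 3 minus that of replicate 1 (x axis) for all 4069 genes (grey, y axis in genes), with the 10 iron reduction and uptake genes and 17 other Aft1/Aft2 regulon genes as ticks. All 10 ticks of the iron reduction and uptake genes lie below 0, where 51.1% of all genes do.

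The other genes of the Aft1/Aft2 regulon were called about as often as all genes. Their list shares some genes with the other lists, such as FRE6 and COT1. Of 17 measured genes, 4 rose, where 26.9% of all genes did, and 5 fell, where 27.9% of all genes did. The other 8 did not pass the limma test, and the median log2 ratio was -0.04. Without replicate 2, 3 of the 17 fell, where 695 of all 4069 genes did, against 1135 of all genes with all 3 arrays. MRS4, which encodes an iron carrier of the inner mitochondrial membrane, rose on every array with 0.99, 1.24 and 1.08 (2.15-fold, adjusted p = 5.17e-05 from limma). ATX1, whose product hands copper on towards Fet3, rose by 0.87 ± 0.12 (SD, n = 3; adjusted p = 0.000175 from limma). SIT1, a siderophore transporter gene related to ARN1, fell and had -0.40, -0.79 and -1.13 on the arrays of replicates 1, 2 and 3 (adjusted p = 0.00215 from limma). FRE6, which encodes a reductase of the vacuolar membrane, fell to -0.53, -0.71 and -1.05 (adjusted p = 0.000991 from limma). FTH1, the vacuolar counterpart of FTR1, fell by 0.50 (adjusted p = 0.00351 from limma). FET5, the gene of its partner oxidase, stood at 0.10 and did not pass.

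Of the other reductase genes, 3 were measured, of which FRE6 and FRE7 fell, where 27.9% of all genes did, and FRE5 did not pass. FRE7, a reductase gene that responds to copper, had log2 ratios of -1.38, -1.54 and -1.54 (mean -1.49 ± 0.09, SD, n = 3; adjusted p = 7.43e-06 from limma). FRE5 had a mean of -0.07 that rested on 1 spot, which stood at 2.06 and 3.49 on the arrays of replicates 2 and 3. The other spots of FRE5 were at most -0.32 on the array of replicate 2 and at most 0.46 on that of replicate 3. With the median of its spots FRE5 stood at -0.37 and was called lower (adjusted p = 0.0130 from limma). Together with FRE1 to FRE4, 7 reductase genes were measured, and FRE4 was the only one among them with a mean above 0.

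FRE1 and FRE7 share control by copper with the high-affinity copper transporter genes CTR1 and CTR3, all known as targets of the activator Mac1. CTR1 fell to -1.83, -2.07 and -1.82 on the 3 arrays (3.75-fold lower, adjusted p = 2.69e-06 from limma), a ratio that 16 other genes undercut. CTR3 fell by 0.75 ± 0.27 on the log2 scale (SD, n = 3; adjusted p = 0.00118 from limma). All 4 of these genes were below 0 on every array, with FRE1 the lowest. MAC1 itself stood at 0.27 and missed the threshold (adjusted p = 0.0788 from limma), but was called higher without replicate 1 (adjusted p = 0.00426 from limma). This group was formed after the values were seen, so no test was made of it as a group, and 2 further known targets, REE1 and IRC7, were not analysed here.

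The 13 other metal transporter genes, CTR1 and CTR3 among them, had a median of 0.07. Of these, 3 rose, where 26.9% of all genes did, 3 fell, where 27.9% of all genes did, and 7 did not pass. ZRT1, the high-affinity zinc transporter gene, rose by 0.83 ± 0.27 (SD, n = 3; adjusted p = 0.000705 from limma), and COT1, which encodes a vacuolar carrier of zinc and cobalt, by 0.55 ± 0.16. FET4, the low-affinity iron transporter gene, rose by 0.40 but was not called when replicate 2 was left out (adjusted p = 0.142 from limma). Without replicate 3, 5 of the 13 genes rose, where 1011 of all 4069 genes did. Without replicate 1, 5 of the 13 fell, where 1340 of all genes did. Of 6 regulators of iron, 1 rose, 1 fell and 4 missed the threshold, beside the same shares of all genes. Their median log2 ratio was 0.21. AFT1 stood at -0.22 and missed the threshold, but was called lower without replicate 1 (adjusted p = 0.0359 from limma) and with the median of spots (0.0474). Its paralogue AFT2 fell by 0.38. Without replicate 2 (adjusted p = 0.0825 from limma) or replicate 3 (0.0551) AFT2 was not called. YAP5, which encodes the activator that answers to high iron, rose by 0.57 ± 0.21 (SD, n = 3; adjusted p = 0.00276 from limma). GRX3 and GRX4, whose products signal iron status to Aft1, had 0.24 and 0.18 and did not pass. Without replicate 1 these 2, MAC1 and YAP5 were called higher, where 1282 of all 4069 genes were, against 1093 with all 3 arrays.

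**Figure D4:**
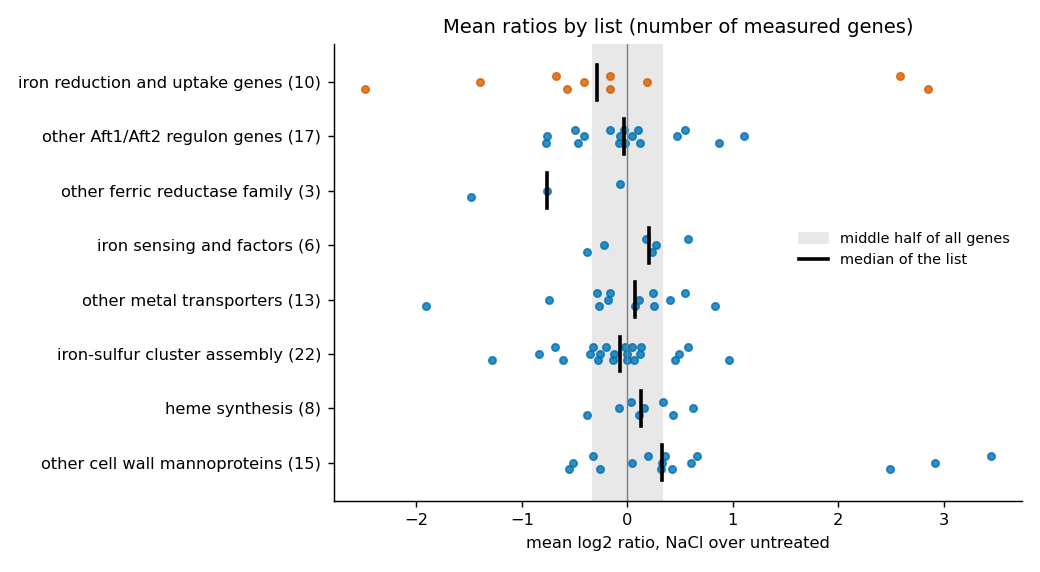
Mean log2 ratio of NaCl over untreated cells over 3 arrays (x axis) of each gene, by list (y axis, number of measured genes in brackets), with the median of a list as a black bar and the interquartile range of all genes in grey. The 10 iron reduction and uptake genes reach further below 0 (FRE1) than any other list, and only the cell wall mannoproteins, with SPI1 at 3.45, reach further above 0.

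Genes that use iron inside the cell are those of iron-sulfur cluster assembly and heme synthesis. Of 22 genes of iron-sulfur cluster assembly, 4 rose, 7 fell and 11 did not pass, with a median log2 ratio of -0.07. Without replicate 2, 4 of the 22 fell, where 695 of all 4069 genes did. YAH1, the mitochondrial ferredoxin gene, fell by 1.28 ± 0.24 (SD, n = 3; adjusted p = 5.43e-05 from limma), followed by TAH18 at -0.84 and MET18 at -0.68, which serve the cytosolic branch. ISA1 of the mitochondrial branch rose by 0.96 ± 0.15 (SD, n = 3; adjusted p = 0.000123 from limma). Of 8 genes of heme synthesis, 3 rose, 1 fell and 4 did not pass, with a median of 0.13. HEM15, which encodes ferrochelatase, the enzyme that inserts iron into heme, rose by 0.62 ± 0.20 (SD, n = 3; adjusted p = 0.00176 from limma). Without replicate 2, HEM15 was the only gene of the list called higher, where 777 of all 4069 genes were. Next to HEM15, HEM12 rose by 0.43 and HEM3 by 0.34, while HEM1 of the first step fell by 0.38. HEM1 was not called without replicate 2 (adjusted p = 0.116 from limma) or replicate 3 (0.210). In all these lists the shares of calls from all 3 arrays are to be read beside the 26.9% and 27.9% of all genes.

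Other mannoproteins of the cell wall were set beside the FIT genes. Of 15 such genes, 7 rose, where 26.9% of all genes did, and 3 fell, where 27.9% of all genes did. The other 5 missed the threshold. The median log2 ratio of the 15 was 0.33. Without replicate 2, 1 of the 15 fell, where 695 of all 4069 genes did. SPI1 had 3.49, 3.52 and 3.33 on the 3 arrays and rose 10.9-fold (adjusted p = 8.56e-08 from limma), CWP1 rose 7.52-fold and YGP1 5.63-fold, all 3 close to or above the 6.01-fold of FIT1. CCW12 rose by 0.66 on the log2 scale, with 1.11, 0.14 and 0.74 on the 3 arrays. DAN1, DAN4 and TIR4 fell, with log2 ratios of -0.55, -0.51 and -0.32, of which DAN1 alone was called without replicate 2.

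FRE3, FIT2, FIT3 and FRE5 follow each other as measured genes on 1 chromosome, and FIT1 lies next to STL1, the glycerol symporter gene. STL1 had the highest ratio of all genes, with 7.42, 8.37 and 8.33 on the 3 arrays (adjusted p = 4.32e-08 from limma). FIT1 is read from the opposite strand. The measured gene on the other side of FIT1, KRE28, was at 0.08 and did not pass (adjusted p = 0.620 from limma), and the next one, APA2, rose by 0.91 (adjusted p = 0.000580). In the run of FRE3, FIT2, FIT3 and FRE5 the mean log2 ratios were -0.41, -0.58, 0.18 and -0.07, and PHR1 beyond it rose by 0.73 (adjusted p = 0.000566 from limma). Next to FRE4, MNT4 rose by 0.55 (adjusted p = 0.00817 from limma), and DSE4, a daughter cell glucanase gene that lies past 6 genes not analysed here, fell by 2.26 (adjusted p = 2.53e-06). Both direct neighbours of FRE1 lay nearer to 0 than FRE1 itself, with 0.02 for CRR1, which did not pass, and -0.44 for CDC123, which fell (adjusted p = 0.00647 from limma) but was not called without replicate 2 (0.0717). At FTR1, UBP5 rose by 0.32 but was not called without replicate 2 (adjusted p = 0.264 from limma), and LSM5 fell by 0.70 (0.000546). Among the 31 measured neighbours that are not of the set, up to 2 on each side of a gene, 10 rose, where 26.9% of all genes did, 5 fell, where 27.9% of all genes did, and 16 did not pass, with a median of 0.04. Besides CDC123 and UBP5, the calls of BIO3 beside FRE4, CPR6 beside FRE1, CBP2 beside ARN1 and SRY1 beside FRE2 were lost without replicate 2.

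**Figure D5:**
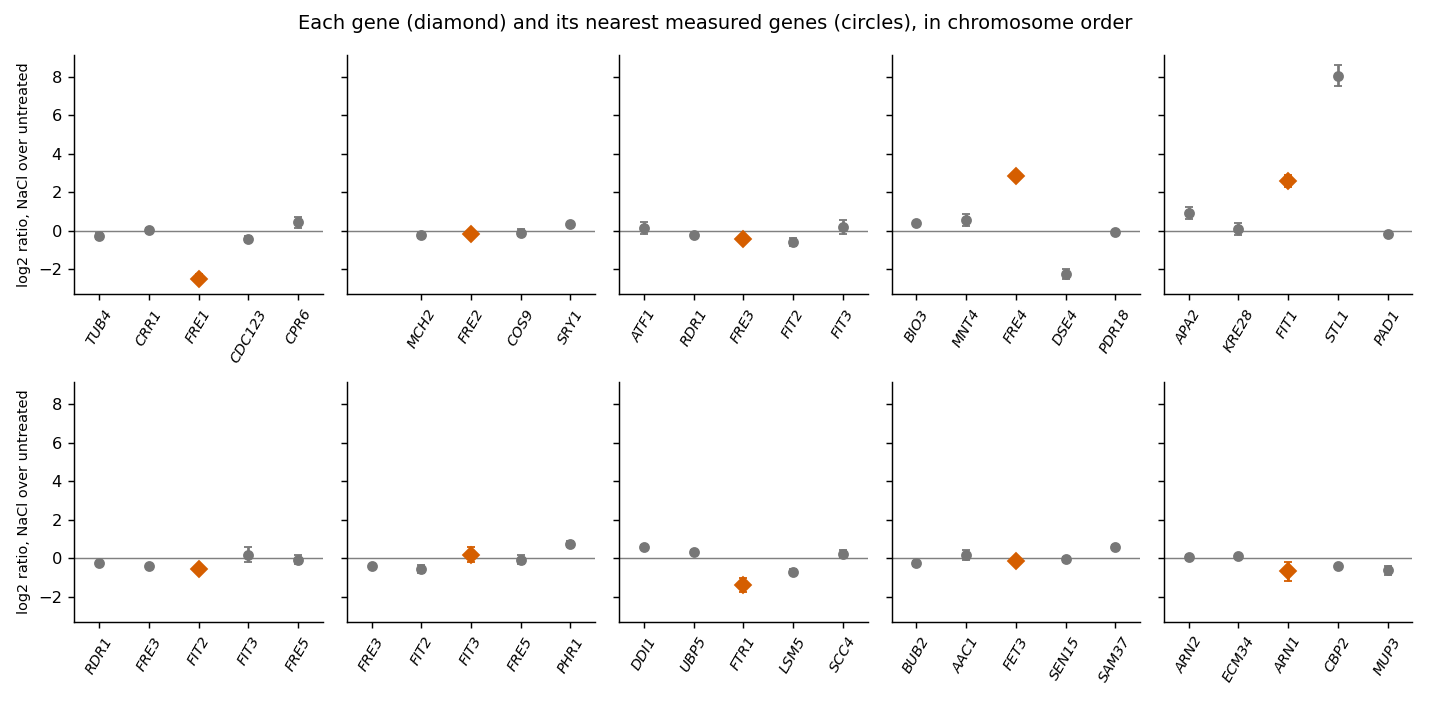
Mean log2 ratio of NaCl over untreated cells with the SD of 3 arrays (y axis) for each of the 10 genes (diamonds) and up to 2 nearest measured genes on each side (circles), in the order of the chromosome (x axis, not to scale; genes without a value are skipped). STL1 beside FIT1 stands at 8.04, and the neighbours of FRE1 and FTR1 lie well above these genes.

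By their values on the 3 arrays, the genes nearest to FRE4 were SGA1, INO1 and CWP1, with root mean square differences of 0.27, 0.28 and 0.29 on the log2 scale. Nearest to FRE1 were PHO84, DSE4 and DUS1, at 0.22, 0.26 and 0.40. With 3 arrays of 1 contrast, this likeness says only that the ratios are of similar size. The deleted genes HIS3, LEU2, MET17 and URA3 had log2 ratios between -0.21 and 0.11 on all arrays. The ratios of FRE2 and FET3 left this range on the array of replicate 3 alone, where they were -0.29 and -0.38. Brightness of the spots was not analysed here, so levels of the 10 genes in either condition are not known and were not compared with each other.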

How the data were processed

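Transcripts were compared on 3 arrays of 2 colours. The authors deposited 1 normalized log2 ratio per spot; limma is named in the submitters' processing notes, while its version, the background correction, the normalization and the spot filter were not given in the sources used here. The log base and direction are not stated with the values. NaCl over untreated was read from STL1, CTT1, ALD3, HSP12 and GPD1, which were above 0 on every array, as were all 385 named genes of the study's list of genes induced over 1.75-fold. For the base, the means were set against that threshold. At 0.81, its log2, 376 list genes lay above and 9 at or below, with 4 genes off the list above; at 0.56, its natural log, 385 list genes but also 224 genes off the list lay above. Base 2 was therefore used.

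Of 45220 spots, 28532 carried 1 gene symbol in the platform annotation, and 3940 of 4073 symbols were current, 129 were synonyms and 4 were kept (R64 gene table), which gave 4069 genes. The 10 members each matched by current symbol, with 7 spots. Spots of a gene were averaged per array. limma 3.58.1 (R 4.3.3) fitted an intercept to the 3 ratios of each gene. Its moderated tests were two-sided, with Benjamini-Hochberg adjustment over 4069 genes at 0.05. The fit was also run on simulated data with noise drawn independently for each gene. That run did not cover differences shared by genes on 1 array. Both channels share an array, so the array is the block. The number of arrays limits the precision. Pearson's correlation across genes was 0.971 between replicates 2 and 3, 0.931 between 1 and 2 and 0.890 between 1 and 3.

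Members and lists were chosen with earlier results of these data known. Named are the members, up to 4 called genes per list with the largest change, 2 measured neighbours per side, the 3 genes nearest to the highest and lowest member, the direction genes and the deleted genes; FTH1, FET5, FET4, AFT1, MAC1, GRX3, GRX4, DAN1, DAN4 and TIR4 were named after their values were seen. Alternatives were centring, scaling, the median of spots, robust empirical Bayes, a threshold of 0.01, single spots and leaving out each replicate. Promoter and protein sequences were not analysed here. Python 3.11.15, pandas 2.3.3 and matplotlib 3.10.9 made the counts and figures.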

Additional observations from a re-analysis of the deposited data

How the results depend on the processing

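Centring, scaling, the median of spots and leaving out each replicate kept 59 mean log2 ratios of the 10 genes within 1 SD between arrays. The 1 that did not stay was FRE3 with the median of spots, at -0.48. None of these ratios changed sign. Leaving out 1 of 3 arrays cannot move a mean by 1 SD of those arrays, so this measure says nothing about leaving out a replicate. With 1 replicate left out, the mean of ARN1 ran from -0.92 to -0.42 and that of FIT3 from 0.01 to 0.38. In alternatives added after the data were seen, the calls of the 10 genes were the same except that FRE3 was not called without replicate 2, FIT3 was called higher without replicate 3, and ARN1 was not called at a threshold of 0.01. Over all genes, 695 to 1340 were called lower and 777 to 1282 higher when 1 replicate was left out. At a threshold of 0.01, 4 of 15 cell wall mannoprotein genes were higher, where 808 of all 4069 genes were. At that threshold 4 of 22 genes of iron-sulfur cluster assembly and 0 of 8 of heme synthesis were lower, where 774 of all genes were. The median of spots gave 2 regulators of iron called lower, and 1160 of all genes. With 1 replicate left out, the counts ran from 3 to 6 lower for the Aft1/Aft2 regulon, from 1 to 4 higher and 0 to 2 lower for regulators of iron, from 2 to 5 higher and 2 to 5 lower for metal transporters, from 4 to 7 lower for iron-sulfur cluster assembly, from 1 to 3 higher and 0 to 1 lower for heme synthesis, and from 1 to 4 lower for the cell wall list. Without replicate 1, more genes were called than with all 3 arrays, with 1282 higher and 1340 lower against 1093 and 1135. Without replicate 2 (777 higher and 695 lower) or replicate 3 (1011 and 1024), fewer were called. The causes of these changes were not tested. The planned motif search and its alternative were not run. Both conditions lie on each array, so the fit to the ratios already pairs them, and no further paired analysis was run. Spot brightness was not analysed, so dim spots could not be set apart.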
